A study of Mus musculus with 2 samples.

Results

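The genes of the cytosolic ribosomal proteins were followed in white adipose tissue of the epididymis, a fat pad beside the epididymis and testis of male mice. A probe set (the group of array probes that reports 1 transcript) was taken when the array annotation gave it a single gene symbol beginning with Rpl or Rps and a number, or Rplp0 to Rplp2, with the S6 kinase genes left out. This rule found 99 of the 22690 probe sets, naming 48 of 12394 genes. The knockout group was a pool of RNA from 5 PPARb/d knockout males aged 12 weeks, on a mixed background (Sv129/C57BL/6). The wild-type group was a pool of 5 males aged 12 to 16 weeks, whose label gives the strain 129S1/SvJae, whereas the design text describes control littermates. Strain and genotype therefore cannot be told apart here. Both groups received chow, and PPARβ/δ, encoded by Ppard, is a nuclear receptor that fatty acids activate. There is 1 Affymetrix array for each pool, so no p-value, SD or SE between samples exists and every difference below is a description of 2 arrays, whose number limits the precision.

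Cytosolic ribosomal proteins assemble with ribosomal RNA into a small subunit, which reads the messenger RNA, and a large subunit, which joins amino acids. Most are needed in equal numbers in every ribosome, and their genes are among the most actively transcribed in nearly all cells. A few have paralogs with narrower expression, such as Rpl39l in male germ cells and Rpl3l in heart and skeletal muscle. Their messenger RNAs typically begin with a C and a run of pyrimidines, the 5′ terminal oligopyrimidine tract, through which the kinase mTOR controls their translation.

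The start sites of some members show this tract. In the promoter table of RefSeq (GRCm38.p6), which had an entry for 41 of the 48 genes, 8 genes (19.5%) had a listed start on C followed by at least 4 bases that are each C or T, against 3.01% of 27025 genes. The 6 of these 8 that reached the intensity floor explained below are shown, Rps6 having reached it in the wild-type pool only. The windows run from 10 bases before the start to 20 bases from it, with the tract in capitals. Beside them are Rpl39 and its germ cell paralog Rpl39l, whose listed starts have no tract.
Rplp2, chr7:141447641-141447670, plus strand: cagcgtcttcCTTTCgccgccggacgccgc
Rpl35, chr2:39005112-39005141, minus strand: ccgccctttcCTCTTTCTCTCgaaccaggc
Rpl38, chr11:114668570-114668599, plus strand: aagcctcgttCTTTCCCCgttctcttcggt
Rps10, chr17:27635225-27635254, minus strand: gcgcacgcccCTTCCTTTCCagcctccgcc
Rps18, chr17:33955646-33955675, minus strand: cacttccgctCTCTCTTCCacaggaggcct
Rps6, chr4:86857348-86857377, minus strand: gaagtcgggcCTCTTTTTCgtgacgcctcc
Rpl39, chrX:37085203-37085232, minus strand: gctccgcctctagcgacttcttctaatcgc
Rpl39l, chr16:10170218-10170247, plus strand: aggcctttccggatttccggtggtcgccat
A listed start may differ from the start used in fat, so a window without the tract says only that these letters are not there.

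The values are intensities on a linear scale, and differences are given as log2 of knockout minus log2 of wild type. A probe set was kept when it reached a log2 intensity of 5 (an intensity of 32) on at least 1 array, and where a gene had several kept probe sets, the brightest by mean stood for it. This kept 78 of the 99 probe sets and 41 of the 48 genes. All but Rps6 were above the floor in both pools.

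Ribosomal protein genes were nearly level between the pools. The median log2 difference of the 41 genes was 0.00 (quartiles -0.10 and 0.07), against a median of -0.08 (quartiles -0.50 and 0.42) over all 6533 genes kept. Of the 41 genes, 22 were higher in the knockout pool, 18 were lower, and Rps26, a small subunit protein at the messenger RNA exit, had the same value of 9145 on both arrays. Above 0 lay 53.7% of the members and 44.4% of all genes kept. Once differences were centred on the median of all genes, the members' share was 73.2%. Centring sets the median of all genes to 0, so the 44.4% is not the background of that share. At least 2-fold higher were 2 members, Rpl39l and Rps4l, where 13.7% of all genes kept were, and at least 2-fold lower was 1 member, Rps6, where 9.14% were. The differences of 37 of the 41 genes were smaller than 0.5 in size, as were those of 51.8% of all genes kept. This share depended on the kind of probe set. Of the 12 kept member probe sets whose ID does not end in _x_at, _s_at or _a_at, 8 (66.7%) differed by less than 0.5. Their quartiles were -0.28 and 0.14, and they include the sets of Rpl39l, Rps4l and Rps6. Of the 37 ending in _x_at, an ending explained below, 94.6% differed by less than 0.5.

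**Figure D1:**
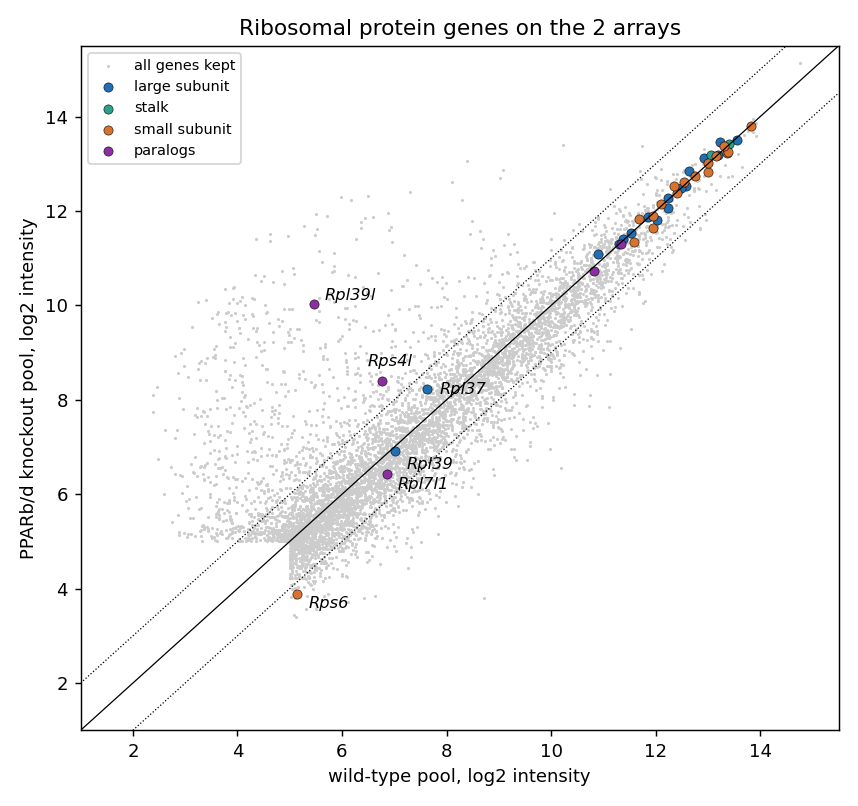
Log2 intensity in the PPARb/d knockout pool (vertical) against the wild-type pool (horizontal) for 6533 genes (grey) and 41 ribosomal protein genes (coloured by subunit). The solid line marks equal values and the dotted lines a 2-fold difference. Rpl39l and Rps4l lie above the upper dotted line and Rps6 lies below the lower one, while most other members sit on the line at the bright end.

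Most members were bright, and bright probe sets differed less in general. Of 881 genes with a mean log2 intensity of at least 10, 66.3% differed by less than 0.5, against all 35 members of that brightness. The 881 include these members, and of the other 846 genes 64.9% differed by less than 0.5. Of the 128 genes with a mean of at least 12, a limit chosen after the values were seen, 78.9% differed by less than 0.5, against all 23 such members. The 128 include these members, and of the other 105 genes 74.3% differed by less than 0.5. Quartiles at that brightness were -0.04 and 0.07 for the members and -0.33 and 0.18 for the other 105 genes. Whether array signal near its upper end compresses these differences was not tested.

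**Figure D2:**
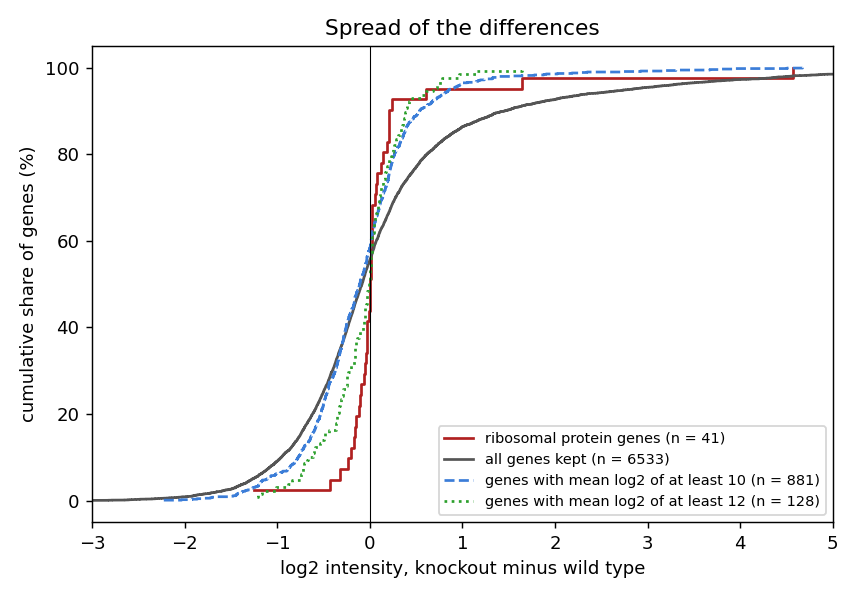
Cumulative share of genes (vertical, %) by log2 difference, knockout minus wild type (horizontal), for 41 ribosomal protein genes, all 6533 genes kept, and the 881 and 128 genes with a mean log2 intensity of at least 10 and 12. The curve of the ribosomal protein genes is the steepest of the 4 near 0, with steps at the right for Rps4l and Rpl39l.

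Genes of the large subunit and its stalk had a median difference of 0.02 over 19 kept genes. Of these, 13 (68.4%) were higher in the knockout pool, against 44.4% of all genes kept. Rpl37, a zinc-binding protein of the large subunit, had the highest difference among them, with 302 in the knockout and 198 in the wild-type pool, a log2 difference of 0.61. This probe set was dim for a member. A brighter one annotated jointly to Rpl37 and Rpl37rt was at 7604 in the knockout pool and 7510 in the wild-type pool, so the difference of Rpl37 was not seen there.

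Rpl4, which lines the tunnel through which the new protein leaves, was at 11341 in the knockout and 9630 in the wild-type pool, a log2 difference of 0.24. Rpl41, the smallest ribosomal protein, was at 2195 and 1897 in the knockout and wild-type pools, and Rpl19 at 7417 in the knockout and 6420 in the wild-type pool, log2 differences of 0.21 each. Rpl41 was higher at all 3 of its kept probe sets, by 0.02 to 0.27.
At the lower end were Rpl6, with 3607 in the knockout and 4162 in the wild-type pool (-0.21), and Rpl7, with 4308 in the knockout and 4837 in the wild-type pool (-0.17). Rpl7 was lower at all 3 of its kept probe sets, by 0.13 to 0.26 in size.

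The stalk, which recruits the elongation factors, was represented by Rplp0 and Rplp2. Rplp0, often used as a reference gene in quantitative PCR, was at 9304 in the knockout and 8557 in the wild-type pool, a log2 difference of 0.12. Rplp2 was at 11039 in the knockout and 10879 in the wild-type pool (0.02). Rplp1 was measured by a probe set annotated jointly with Gm13777, at 6569 in the knockout and 5509 in the wild-type pool (0.25).

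Among large subunit proteins with tasks outside the ribosome, Rpl11, which binds the p53 regulator Mdm2, was at 3752 in the knockout and 3686 in the wild-type pool (0.03). Its partner Rpl5 was measured only by probe sets shared with Rpl5-ps2, the brightest at 6531 in the knockout and 7046 in the wild-type pool (-0.11). Rpl13a, a member of an interferon-induced complex that silences translation in human myeloid cells, was at 9379 in the knockout and 9415 in the wild-type pool (-0.01). Its 4 kept probe sets differed by -0.02 to 0.10.

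Genes of the small subunit had a median difference of -0.03 over 17 kept genes, and this median was 0.052 after centring. In the knockout pool 7 of the 17 were higher and 9 lower. The share higher, 41.2%, was near the 44.4% of all genes kept. Rps19, the gene most often mutated in Diamond-Blackfan anaemia, was at 3178 in the knockout and 3967 in the wild-type pool, a log2 difference of -0.32. Rps7 was the highest, with 5955 in the knockout and 5246 in the wild-type pool (0.18), and its other kept probe set was higher by 0.13. The medians of the subunits differed by less than the differences between their own members, and no test of the subunits against each other was made.

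Rps6, the substrate of the S6 kinases, had the lowest difference of all members, but from a dim probe set. The value was 14.9 in the knockout pool, below the floor, and 35.4 in the wild-type pool. As measured the log2 difference was -1.25, and with the knockout value set to the floor it was -0.15, a fold of at least 1.11. Rps6 passed the floor only through the pool in which it was high. Brighter probe sets annotated jointly to Rps6 and Rps6-ps4 did not show this difference. The brightest was at 12503 in the knockout and 12154 in the wild-type pool (0.04).

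Rps9 was the member whose probe sets disagreed most. Its representative was at 2604 in the knockout and 3073 in the wild-type pool, a log2 difference of -0.24. The other kept probe set was at 1961 in the knockout and 532 in the wild-type pool, a log2 difference of 1.88, or 3.69-fold. That probe set has an ID ending in _x_at, which Affymetrix gives to sets with probes that can match other transcripts. The direction for Rps9 therefore depended on the probe set.

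**Figure D3:**
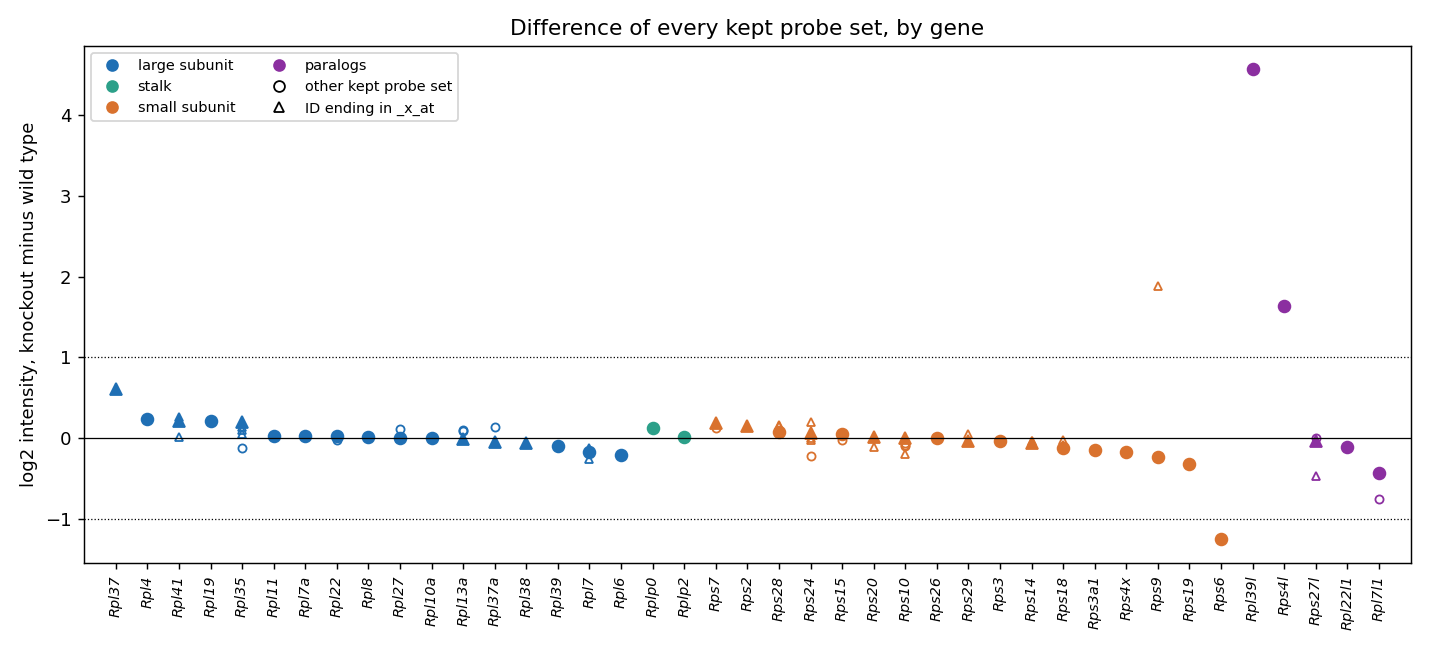
Log2 difference, knockout minus wild type (vertical), of every kept probe set of the 41 ribosomal protein genes (horizontal), grouped by large subunit, stalk, small subunit and paralogs. Filled symbols represent the gene, open ones are its other probe sets, triangles are IDs ending in _x_at, and dotted lines mark a 2-fold difference. Only Rpl39l, Rps4l, Rps6 and the open triangle of Rps9 lie outside them.

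For the other members the probe sets of a gene lay close together. Of 19 genes with several kept probe sets, the SD of the difference between probe sets had a median of 0.07, against 0.25 over 2137 genes of the array. Leaving out Rps9, the SD of a member gene was at most 0.26. The 2137 genes were not matched to the members for brightness, and bright probe sets differed less in general. The closeness therefore cannot be called a trait of the members. Agreement in sign was seen for 8 of the 19 genes (42.1%), against 72.9% of the 2137, and 7 of the other 11 members differed by less than 0.2 in size at each of their probe sets. After Rps9 the widest ranges were those of Rps27l (-0.47 to 0.00), Rps24 (-0.23 to 0.20), Rpl7l1 (-0.75 to -0.43) and Rpl35 (-0.12 to 0.20). Probe sets of 1 gene share an array and are not replicates of a genotype. The scaling also set some signs, since centring gave Rpl13a 0.08 and Rps27l 0.05, and removing the trend with intensity also gave Rpl39 0.07 and Rpl22l1 0.04.

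The paralogs held the largest differences of the set. Rpl39l, a copy of the exit-tunnel protein gene Rpl39 that is active in male germ cells, was at 1047 in the knockout pool and 44.2 in the wild-type pool. Both values were above the floor, and the log2 difference was 4.57, or 23.7-fold. Its namesake Rpl39 was at 121 in the knockout and 130 in the wild-type pool (-0.10), and a brighter probe set annotated to Rpl39 and Gm32211 was at 7515 in the knockout and 8535 in the wild-type pool (-0.18). Rpl39l was thus far higher in the knockout pool, while neither probe set of Rpl39 was.

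Rps4l, a copy of the S4 gene that the gene records of GRCm38.p6 class as a transcribed pseudogene, was at 338 in the knockout and 108 in the wild-type pool. The log2 difference was 1.64, or 3.12-fold. The ubiquitous Rps4x, on the X chromosome, was at 7318 in the knockout and 8208 in the wild-type pool (-0.17). Rpl39l and Rps4l were each measured by a single probe set, so no second probe set of either could be compared.

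The other paralogs did not reach a 2-fold difference. Rpl22l1, which resembles Rpl22, was at 1688 in the knockout and 1814 in the wild-type pool (-0.10), and Rpl22 was at 2703 in the knockout and 2663 in the wild-type pool (0.02). Rps27l, a p53-responsive copy of Rps27 in human cells, was at 2545 in the knockout and 2606 in the wild-type pool (-0.03). Rpl7l1, an L7-like gene, was lower at both of its probe sets, with 85.8 in the knockout and 116 in the wild-type pool at the brighter (-0.43) and 44.1 in the knockout and 74.3 in the wild-type pool at the dimmer (-0.75). The muscle paralog Rpl3l was below the floor in both pools, at 23.2 in the knockout and 21.0 in the wild-type pool.

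Germ cell markers were also higher in the knockout pool. The 22 markers were listed with earlier results of these data known, so their count is only a description. At the brightest probe set of each, all 22 were higher in the knockout pool by 2-fold or more, where 13.7% of all genes kept were. All 22 also were with values below the floor set to it. On that scale they ran from Sycp1, at least 1.38, to Meig1 (6.45, both values above the floor), with a median log2 difference of 4.52 (5.15 as measured), to be read as a lower bound. Their summed intensity was 75021 in the knockout and 3987 in the wild-type pool. None was below the floor in the knockout pool and 8 were in the wild-type pool (Tssk2, Tssk3, Sycp1, Hspa1l, Ddx4, Dazl, Zpbp and Acrv1). Single markers ranged from 83.3 to 10833 in the knockout pool and from 7.66 to 1193 in the wild-type pool. A dimmer kept probe set of Odf2 did not reach 2-fold, at 145 in the knockout and 119 in the wild-type pool (0.29). The 8 epididymis markers ran from Cuzd1 (-0.03) to Defb1 (1.57) and had a summed intensity of 57087 in the knockout and 49089 in the wild-type pool, all above the floor in both. The part of germ cells in the differences of Rpl39l and Rps4l was not tested. In such bulk samples a different number of cells of a type and a different amount of RNA per cell cannot be told apart.

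The promoters of Rpl39l and Rpl39 are shown because the genes differ so much in these data. Both are the 250 bases before the listed start, from RefSeq (GRCm38.p6). Capitals mark CCGGAAG, a core recognised by ETS factors, searched on both strands, where the opposite strand reads CTTCCGG.
Rpl39l, chr16:10169978-10170227, plus strand: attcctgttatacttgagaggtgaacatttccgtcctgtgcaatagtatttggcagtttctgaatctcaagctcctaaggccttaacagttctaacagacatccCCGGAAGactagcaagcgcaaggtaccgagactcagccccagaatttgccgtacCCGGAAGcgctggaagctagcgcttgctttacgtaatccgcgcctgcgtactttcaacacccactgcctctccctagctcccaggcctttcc
Rpl39, chrX:37085223-37085472, minus strand: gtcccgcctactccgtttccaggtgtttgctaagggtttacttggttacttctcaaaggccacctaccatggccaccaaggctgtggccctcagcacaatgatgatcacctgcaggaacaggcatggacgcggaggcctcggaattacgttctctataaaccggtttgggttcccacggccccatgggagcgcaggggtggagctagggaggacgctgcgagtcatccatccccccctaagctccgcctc
The letters occurred at 2 places in the window of Rpl39l, beginning 146 and 92 bases before the start, and did not occur in that of Rpl39. They were present for 16 of the 41 members with an entry (39.0%), against 7.83% of 27025 genes, among them Rplp2, Rpl35 and Rps18, whose differences were 0.02, 0.20 and -0.12. A match is a description of letters and not a binding site.

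On chromosome 17, which carries Ppard, lie 7 members, of which 6 were kept, with a median difference of 0.00. None of the 6 reached 2-fold, where 13.7% of all genes kept were higher and 9.14% lower by that much, so with so few members this count shows little. Rpl10a, separated from Ppard by 1 protein-coding gene of the gene records, was at 5782 in the knockout and 5763 in the wild-type pool (0.00). Rps10, on the other side with 11 such genes between, was at 6908 in the knockout and 6888 in the wild-type pool (0.00), and its 5 kept probe sets differed by -0.19 to 0.00.
Rps2 was at 3634 in the knockout and 3286 in the wild-type pool (0.15), and Rps28 at 10633 in the knockout and 10113 in the wild-type pool (0.07). Rps18, another common reference gene, was at 9818 in the knockout and 10688 in the wild-type pool (-0.12). Ppard itself was below the floor in both pools, at 6.27 in the knockout and 6.58 in the wild-type pool, so it gives no check of the labels.

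The 7 genes with no kept probe set were Rpl12, Rpl14, Rpl27a, Rps25, Rps27, Rpl3l and the pseudogene Rps15a-ps6. Their own probe sets ranged from 8.14 to 23.2 in the knockout pool and from 7.52 to 21.0 in the wild-type pool. For Rpl12, Rpl14, Rpl27a, Rps25 and Rps27, brighter probe sets existed that the annotation shares with pseudogenes or predicted genes. The brightest of these for Rps27, shared with Rps27rt, was at 10164 in the knockout and 9633 in the wild-type pool. For Rpl14, the 5 kept shared probe sets were all higher in the knockout pool, by 0.18 to 0.37.

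In all, 102 probe sets named a ribosomal protein gene together with other genes, and 86 reached the floor. These sets were not counted among the members, because their signal cannot be assigned to a single gene. None differed by 2-fold, where 13.7% of all genes kept were higher and 9.14% lower by that much. The median difference was 0.04 (quartiles -0.07 and 0.11). Many of these sets were bright, and bright probe sets differed less in general. Of the 86, 84 differed by less than 0.5 in size, against 51.8% of all genes kept. The exceptions were a set shared by Rpl15 and Gm10224, at 600 in the knockout and 1081 in the wild-type pool (-0.85), and a set shared by Rpl13 and Tax1bp3, at 706 in the knockout and 1199 in the wild-type pool (-0.77). Fau and Rpsa, which encode ribosomal proteins under other symbols, were level as well. Fau was at 3330 in the knockout and 3051 in the wild-type pool (0.13), and Rpsa was at 2534 in the knockout and 2681 in the wild-type pool (-0.08).

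Other genes of translation spread more widely than the ribosomal proteins, but many of them were also dimmer, and bright probe sets differed less in general. The spreads were therefore not compared by a test. Of 11 kept genes listed with the elongation and termination factors none differed by 2-fold, and the median was 0.04. With 13.7% of all genes kept 2-fold higher and 9.14% lower, this count among so few genes shows little. The extremes were Eef1d, a nucleotide exchange factor, at 3471 in the knockout and 1826 in the wild-type pool (0.93, and 1.01 at its dimmer probe set), and Eef1e1, at 121 in the knockout and 197 in the wild-type pool (-0.70). Eef1a1, which carries aminoacyl-tRNA to the ribosome, was at 9212 in the knockout and 8930 in the wild-type pool (0.04).
The 30 initiation factor genes had a median of 0.19. At least 2-fold higher were 2 of them, where 13.7% of all genes kept were, and none was 2-fold lower, where 9.14% were. The highest was Eif4g3, a scaffold of the cap-binding complex, at 127 in the knockout and 43.2 in the wild-type pool (1.55), and the lowest Eif4b, at 529 in the knockout and 769 in the wild-type pool (-0.54). The other 2 kept probe sets of Eif4b differed by -0.54 and 0.10, so its direction depended on the probe set.

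The 34 kept ribosome biogenesis genes had a median of 0.08. At least 2-fold higher were 2 of them, against 13.7% of all genes kept, and none was 2-fold lower, against 9.14%. The count of higher genes was 1 with dim values set to the floor, since Rpf2 was at 48.1 in the knockout pool and below the floor, at 19.1, in the wild-type pool, a log2 difference of at least 0.59. Wdr12, needed for large subunit assembly, was at 332 in the knockout and 42.2 in the wild-type pool (2.97), and Wdr43 was the lowest (-0.67). The 10 kept genes of the mTOR and S6 kinase axis had a median of -0.36. With 13.7% of all genes kept 2-fold higher and 9.14% lower, counts among so few genes show little. At least 2-fold lower were 2 of the 10, and at least 2-fold higher was 1. Pdpk1, the kinase that activates Akt, was at 352 in the knockout and 36.2 in the wild-type pool (3.28) at its brighter probe set, but its other kept probe set was at 100.4 in the knockout and 114 in the wild-type pool (-0.19), so this count rests on 1 probe set of a gene whose probe sets disagree. Eif4ebp1, a translation repressor that mTOR inactivates, was at 402 in the knockout and 931 in the wild-type pool (-1.21). The germ cell markers, with a median of at least 4.52, were higher in the same pool, and their part in these differences was not tested.

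Mitochondrial ribosomal protein genes, which serve the separate ribosome of that organelle, had a median difference of -0.07 over 69 kept genes of 74. Their quartiles were -0.36 and 0.20. At least 2-fold higher were 2 genes, against 13.7% of all genes kept, and at least 2-fold lower were 3, against 9.14%. The count of lower genes was 2 with dim values set to the floor, since Mrps35 was at 31.1 in the knockout pool, below the floor, and 62.5 in the wild-type pool. Mrpl39 was at 503 in the knockout and 151 in the wild-type pool (1.74), and Mrps26 at 45.1 in the knockout and 93.3 in the wild-type pool (-1.05). The cytosolic members thus covered a narrower range at the quartiles, and they were also brighter, so the spreads were not compared by a test.

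Markers of the cells of the fat pad differed more than the ribosomal protein genes. These lists were chosen with earlier results of these data known, and 3629 of all 6533 genes kept were lower in the knockout pool. All 12 adipocyte markers were above the floor in both pools, and all were lower in the knockout pool, with a median of -1.15 and a summed intensity of 47957 in the knockout and 73269 in the wild-type pool. The adipokine gene Adipoq was at 8030 in the knockout and 10259 in the wild-type pool (-0.35). They ran from Lep (-2.87) to Fabp4 (-0.20). All 11 macrophage markers were lower, and with values below the floor set to it they ran from Cd163 (-1.42, a drop of at least 2.68-fold) to Ctss (-0.17), with a median of -0.78 (-0.93 as measured). Their summed intensity as measured was 2787 in the knockout and 4714 in the wild-type pool. Cd163, Cd14 and Fcer1g did not reach the floor in the knockout pool.
Of 8 kept endothelial markers 7 were lower, from Sox18 (-1.59) to Cldn5 (0.01), with a median of -0.95. Of 7 stromal progenitor markers 5 were lower, from Cd34 (-1.15) to Dpp4 (0.68). Their median was -0.57 as measured and -0.48 with Pi16, dim in the knockout pool, raised to the floor there. With 3629 of all 6533 genes kept lower, counts among so few markers show little. Of 8 lymphocyte markers 6 did not reach the floor in either pool, and Ighm (-2.06) and Jchain (-0.38) were lower in the knockout pool. The 41 ribosomal protein genes, by contrast, had a median of 0.00 on the same arrays.

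**Figure D4:**
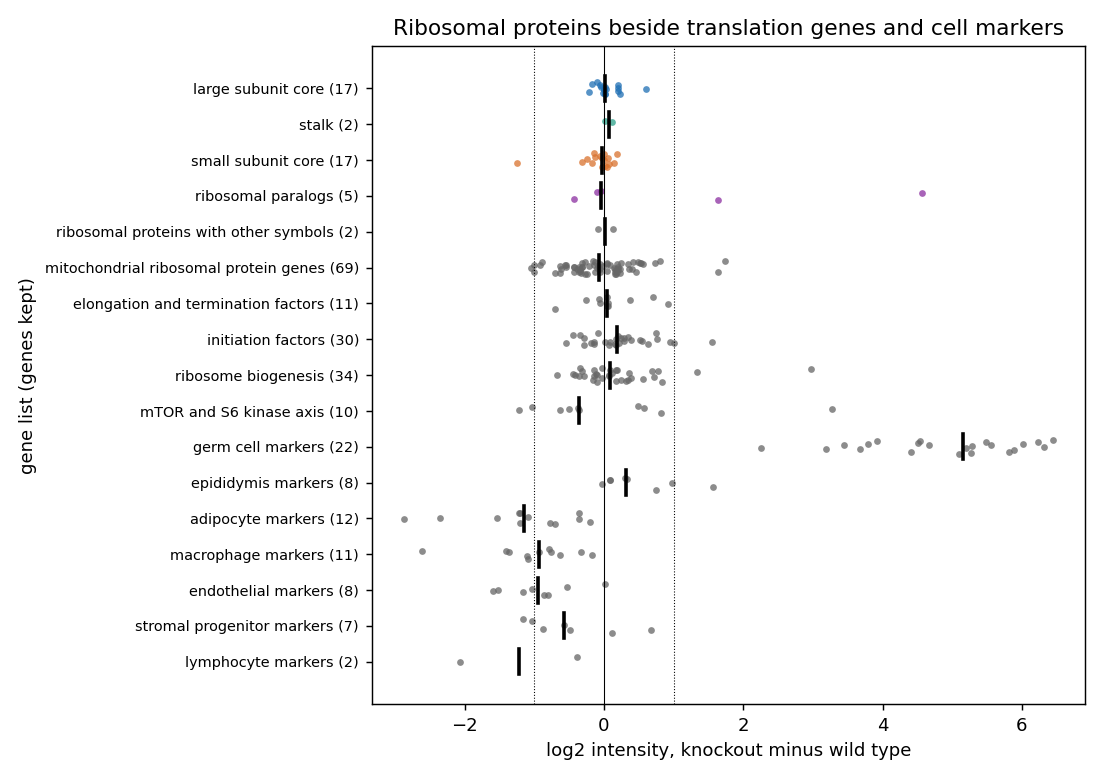
Log2 difference as measured, knockout minus wild type (horizontal), of each kept gene (points) in 17 gene lists (vertical, number of kept genes in brackets), with the median as a thick bar and dotted lines at a 2-fold difference. Core ribosomal protein genes gather at 0. To the right lie 2 paralogs and the germ cell markers, and adipocyte, macrophage and endothelial markers lie mostly to the left.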

How the data were processed

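The deposited table holds probe set intensities on a linear scale. The submitters' processing notes name GCRMA 2.20 as the authors' tool, without saying which arrays entered it together. GCRMA equalises the distributions of arrays, which presumes little net change, and draws dim probe sets together. The design text names the 430 2.0 array, but the table and its annotation hold the 22690 probe sets of a smaller array, so counts here do not cover the array named. Log2 was taken, the floor of 5 was applied, and 20393 probe sets naming 1 gene were used; 691 naming several and 1606 naming none were left out of gene counts. Symbols were updated through Entrez identifiers to GRCm38.p6 gene records (20364 matched, among them all 99 members). Python 3.11.15, pandas 2.3.3 and statsmodels 0.14.6 (lowess, fraction 0.3) were used, and the counting was tested on simulated data.

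The named genes are the 6 highest and 6 lowest members, the stalk genes, paralogs with their namesakes, members with no kept probe set, the 5 whose probe sets disagree most, Rps6, Rpl5, Rpl11, Rpl13a, Rps19, members on chromosome 17, and the extremes of other lists. Members and lists were chosen with earlier results of these data known. Rps26, Rps7, Rplp1 (a stalk gene but not a member), Rpl15, Rpl13, Rpl38, Adipoq, Odf2 and Eef1a1 were chosen outside this rule, after their values were seen. So were genes of other lists named as below the floor.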

Additional observations from a re-analysis of the deposited data

How the results depend on the processing

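No paired analysis was possible because each genotype has 1 array and the labels carry no replicate numbers; for the same reason no replicate could be left out. Centring on the median of all genes, a shift of 0.08, gave medians of 0.089 for all members, 0.105 for the large and 0.052 for the small subunit, and removing the trend with intensity gave 0.076, 0.126 and 0.051, so the small subunit median turned positive under both. Without probe sets ending in _x_at, _s_at or _a_at, 11 members were left and the small subunit median was -0.23. This median rests only on Rps15 (-0.02), Rps24 (-0.23) and Rps6 (-1.25). Its value is that of a dim Rps24 set, at 83.7 in the knockout and 97.8 in the wild-type pool, and Rps6 was below the floor in the knockout pool. The share of members higher in the knockout pool, 53.7%, was 73.2% under both scalings. These also moved the median of all genes, from -0.08 to 0 with centring and to 0.03 without the trend. The count of 2-fold lower members was 0 with a floor of log2 6, with values set to the floor, and at a mean log2 of at least 10 or 12, since each of these takes out Rps6 or lifts its dim value. The count of 2-fold higher members was 0 for core genes alone and at a mean of at least 10 or 12, which leave out Rpl39l and Rps4l, and 3 when each probe set was counted. The mean over its probe sets gave Rps9 0.82. A change was judged against the median SD between probe sets of 1 member gene, 0.07. Signal over background limits Rps6 and the 7 members below the floor.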
